A study of Homo sapiens with 9 samples.

Results

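The 10 genes described here are parts of one signalling pathway, NF-κB, in the human liver cancer cell line HepG2. They were chosen by name and role, with earlier results of these data known. NFKB1, NFKB2, REL, RELA and RELB encode the 5 subunits, NFKBIA, NFKBIE and TNFAIP3 encode 3 inhibitors, and BIRC3 and ICAM1 are 2 target genes. All 10 were found among the 62703 gene identifiers counted, and all 10 were among the 17623 genes with enough counts to be tested. HepG2 cells without the drug (control) were set beside cells given eliglustat, an inhibitor of the enzyme that makes glucosylceramide, at 20 or 30 µM for 72 h. Each group had 3 RNA-seq libraries, 9 in all. The labels give no time for the control, and a further 48 h incubation that the series mentions is not tied to these libraries. All groups are the same cell line in culture, and the labels do not say whether the 3 libraries of each came from different culture dishes. The p-values below therefore measure the spread between libraries, which may be technical.

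NF-κB subunits bind DNA as pairs. In resting cells the inhibitory IκB proteins hold most pairs in the cytoplasm. Receptors for tumour necrosis factor, interleukin-1 and microbial products activate the IκB kinase (IKK) complex, IκB is marked for degradation, and pairs that contain RELA or REL enter the nucleus; this is the canonical branch. In the noncanonical branch the kinase NIK, the product of MAP3K14, leads to cutting of the NFKB2 precursor, whose product pairs with RELB. Many genes that NF-κB switches on encode its own subunits and inhibitors, so that the members named here as subunits or inhibitors (other than RELA) are also known as targets. In hepatocytes the pathway is known for the acute phase response and for protection from cell death.

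Because several of these genes are textbook NF-κB targets, the promoter stretches that hold a match to the 10-base κB consensus are shown here. The sequences are from RefSeq (GRCh38.p14), in windows from 250 bases before to 50 bases after a gene's start, searched on both strands. Each line is 30 bases of the gene's own strand, 5′ to 3′, and capitals mark the match. Matches on either strand that overlap, or that lie side by side with hardly a base between them, were joined.
NFKB1, chr4:102501300-102501329, + strand: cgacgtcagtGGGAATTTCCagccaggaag
NFKB2, chr10:102394462-102394491, + strand: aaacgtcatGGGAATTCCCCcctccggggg
NFKB2, chr10:102395674-102395703, + strand: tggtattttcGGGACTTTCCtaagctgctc
REL, chr2:60881518-60881547, + strand: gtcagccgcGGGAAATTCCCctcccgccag
NFKBIA, chr14:35404811-35404840, - strand: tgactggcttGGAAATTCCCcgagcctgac
TNFAIP3, chr6:137867188-137867217, + strand: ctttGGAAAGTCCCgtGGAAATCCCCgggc
BIRC3, chr11:102317275-102317304, + strand: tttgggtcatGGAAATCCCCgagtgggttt
BIRC3, chr11:102317339-102317368, + strand: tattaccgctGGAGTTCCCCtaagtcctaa

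The table held windows for 8 of the 10 members; RELB and NFKBIE had none. At least 1 match was found in 6 of these 8 members (75.0%), in 18 of the 30 other target genes with a window that are listed further on (60.0%), and in 3619 of 27305 genes with any window (13.3%). Counted by window, 7 of the 12 windows of the members (58.3%) and 3956 of all 35116 windows (11.3%) held a match. The members and the other target genes were chosen as known genes of this pathway, so their shares are a description and no independent support. NFKB2 had 4 stretches with a match, in 2 of its 3 windows; 1 of each window is shown, and the closest to a start lay 21 to 12 bases before it. In GENCODE 29 the stretches of NFKBIA and BIRC3 lie outside the gene, before its first exon. That of TNFAIP3 and the first of NFKB2 lie wholly in annotated untranslated exons of the gene, as do 27 of the 30 bases of REL, 11 of the second of NFKB2 and 1 of NFKB1. In TNFAIP3 a pair of matches lay side by side, between 67 and 46 bases before the start. The windows of RELA and ICAM1 held no match, which says only that these letters are not in those windows. A match describes the sequence; binding was not measured in these libraries.

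Each library held between 21103757 and 26782810 reads assigned to genes. Between 40.6 and 44.0% of the records in its file were assigned to no single gene, for reasons that were not separated here. Levels are given as CPM, the usual depth-scaled count, on library sizes adjusted by the trimmed mean of M-values (TMM). Across genes, control library 1, the third 20 µM library and the third 30 µM library deviated from their group means together, with correlations of 0.331 to 0.352; without these 3 the members that rose still numbered 7, 10 and 10 in the 3 comparisons below. All 10 hepatocyte and HepG2 markers looked up had group means of 1 CPM or more. They did not move as one: 7 rose and 2 fell at 20 µM, and 4 rose and 4 fell at 30 µM, where the median change was -0.026 (log2). ALB and AFP fell at both doses, by 0.47 and 0.52 at 30 µM. HNF4A rose by 0.17 at 20 µM and fell by 0.23 at 30 µM, where FGB fell by 0.355. The largest change at 30 µM was a rise, of 1.25 in TTR, and APOB rose by 0.48 and FOXA2 and SERPINA1 by 0.23 each. The summed level, 31660 to 32640 CPM in control, 35160 to 35600 at 20 µM and 39600 to 39990 at 30 µM, was carried mostly by APOB, with means of 19950, 21520 and 27770 CPM. Of 10 leukocyte markers only LYZ, which encodes lysozyme, had a group mean of 1 CPM or more; the summed level was 450.8 to 496.8 CPM in control, 438.6 to 474.9 at 20 µM and 637.6 to 667.7 at 30 µM, and PTPRC and MS4A1 were at 0 counts in all 9 libraries. The 7 endothelial markers summed to between 4.05 and 6.34 CPM, with EMCN at 0 counts throughout. The 8 fibroblast and stellate markers summed to 34.5 to 41.4 CPM in control, 35.0 to 36.7 at 20 µM and 23.8 to 26.1 at 30 µM, with COL1A2 and DCN at 0 counts in all 9 libraries. The leukocyte sum was higher at 30 µM through LYZ. The fibroblast sum was lower there mostly through ACTA2, with means of 36.0 CPM in control and 21.5 at 30 µM. PDGFRB went the other way, from 0.85 to 3.01 CPM. Of the 3 fibroblast and stellate markers that could be tested, 1 rose, 1 fell and 1 did not pass at 30 µM against control. The part of these cell markers in the changes below was not tested. In bulk RNA a difference in the number of cells that express a gene and a difference in RNA per cell cannot be told apart.

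Members rose with eliglustat, and none fell. At 20 µM 7 of the 10 members rose against control, where 17.2% of all tested genes rose and 16.9% fell; the 7 were NFKB2, RELB, NFKBIA, NFKBIE, TNFAIP3, BIRC3 and ICAM1. At 30 µM all 10 rose against control, beside 29.5% of tested genes that rose and 31.3% that fell. All 10 were also higher at 30 than at 20 µM, beside 28.0% of tested genes higher and 28.9% lower. The median change of the 10 members was 0.40 (log2) at 20 µM and 1.17 at 30 µM against control, and 0.78 between the doses, where the medians of all tested genes were 0.0087, -0.036 and -0.029. These calls are from edgeR's quasi-likelihood test with Benjamini-Hochberg adjustment over all 17623 genes at a threshold of 0.05, as are all adjusted p-values below. The comparisons of the 2 doses with control share the control libraries. Because the members were chosen with earlier results of these data known, their counts beside the shares of all genes are a description only. The 3 libraries of a group lay fully apart from those of the other group in 7 members at 20 µM against control, in 10 at 30 µM against control and in 10 between the doses, while 44.5, 65.0 and 61.1% of all tested genes did so.

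**Figure D1:**
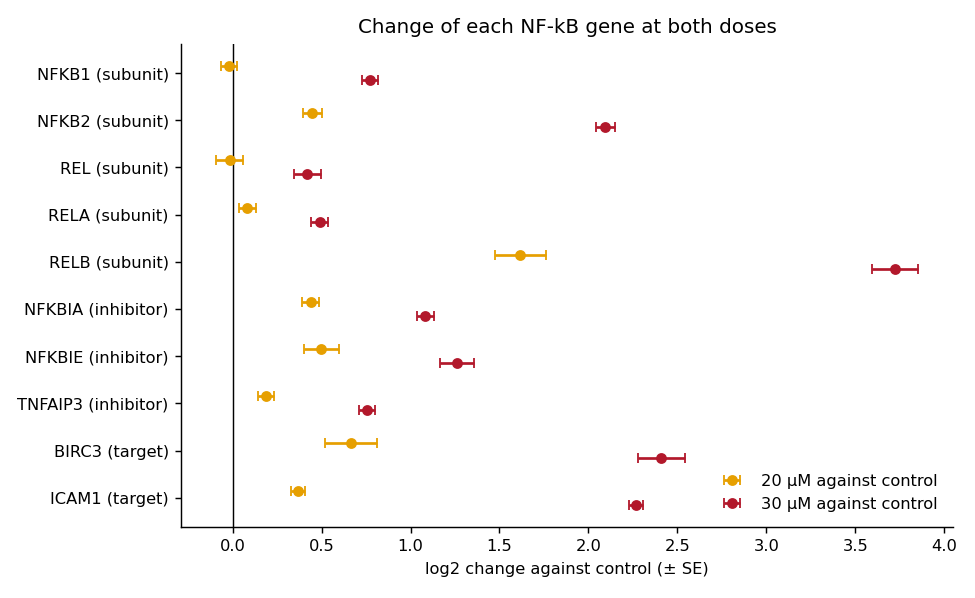
Change against control on the log2 scale (horizontal axis) for each of the 10 NF-κB genes, with points for 20 µM and 30 µM eliglustat and bars for the standard error of the fitted change. NFKB1, REL and RELA lie near 0 at 20 µM, and all 10 genes lie above 0 at 30 µM, from 0.42 for REL to 3.72 for RELB.

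Among the subunits, the RNA of those of the noncanonical branch was raised at both doses. RELB (chr19:45001430-45038198, + strand; coordinates of genes are GENCODE 29 on GRCh38), the partner of the processed NFKB2 product, had 1.69, 2.98 and 1.98 CPM in the 3 control libraries, 6.65, 7.06 and 6.29 at 20 µM and 29.03, 26.6 and 30.5 at 30 µM. The groups stepped up with dose without overlap, from the lowest level of any subunit. RELB rose by 1.62 ± 0.14 (log2 change ± SE, 3 libraries a group) at 20 µM, 3.07-fold, with an adjusted p of 1.11e-10, and by 3.72 ± 0.13 at 30 µM, 13.2-fold, with an adjusted p of 5.93e-22. Between the doses it rose 4.31-fold (adjusted p = 4.25e-17). Its counts ran from 47 to 739 a library, so the control level is the least precise of the subunits, at 2.21 ± 0.68 CPM (SD, n = 3).

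NFKB2 (chr10:102394110-102402529, + strand) had the most promoter windows of the members, and also the most stretches with a match. It encodes the precursor that noncanonical signalling cuts to a DNA-binding subunit. It had 24.6, 24.1 and 25.6 CPM in control, 32.02, 34.6 and 35.0 at 20 µM and 109.1, 106.6 and 102.5 at 30 µM. No library of one group reached the level of the next. Its rise was small at 20 µM, 0.45 ± 0.05 (log2 change ± SE) or 1.37-fold with an adjusted p of 4.59e-08, and 2.10 ± 0.05 at 30 µM, 4.27-fold, with an adjusted p of 1.09e-26. From 20 to 30 µM NFKB2 rose 3.13-fold (adjusted p = 7.13e-24).

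The subunits of the canonical branch did not pass the test at 20 µM and rose less than 2-fold at 30 µM. NFKB1 (chr4:102501329-102617302, + strand), the precursor of the usual partner of RELA, had 61.8, 61.1 and 60.7 CPM in control, 61.8, 61.6 and 57.5 at 20 µM and 103.6, 102.2 and 107.8 at 30 µM. Control and 20 µM overlapped, and every 30 µM library lay above both. The difference was -0.02 ± 0.04 (log2 change ± SE) at 20 µM (adjusted p = 0.771), and NFKB1 rose by 0.77 ± 0.04 at 30 µM, 1.71-fold (adjusted p = 9.60e-17). The rise between the doses was 1.73-fold (adjusted p = 8.24e-17).

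RELA (chr11:65653596-65663094, - strand), the main activating subunit of the canonical branch, had 66.5, 63.9 and 60.7 CPM in control, 65.4, 70.5 and 66.6 at 20 µM and 87.8, 89.1 and 91.2 at 30 µM. The control and 20 µM libraries overlapped again, with a difference of 0.08 ± 0.05 (log2 change ± SE; adjusted p = 0.174). RELA rose 1.40-fold at 30 µM, by 0.49 ± 0.05, with an adjusted p of 2.82e-11, and 1.33-fold between the doses (adjusted p = 2.44e-09). A gene on the opposite strand, RELA-DT, overlaps it, and because the strand setting of the counting is unknown, the share of its reads is uncertain.

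REL (chr2:60881521-60931610, + strand), the other activating subunit, known mainly from lymphoid cells, was the lowest of the canonical subunits, with 20.5, 19.9 and 17.0 CPM in control, 19.4, 18.5 and 18.9 at 20 µM and 24.1, 26.9 and 25.7 at 30 µM. The 20 µM libraries fell within the control range. The difference at 20 µM was -0.015 ± 0.076 (log2 change ± SE; adjusted p = 0.915), while REL rose by 0.42 ± 0.07 at 30 µM, 1.34-fold (adjusted p = 1.03e-05), and 1.35-fold between the doses (adjusted p = 7.49e-06). RNU4-51P and the unnamed gene ENSG00000267520 overlap REL on the same strand, and how reads shared with them were counted is not known.

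All 3 inhibitors rose at both doses. NFKBIA (chr14:35401511-35404749, - strand) encodes IκBα, the inhibitor that holds RELA pairs in the cytoplasm and that NF-κB itself induces. It had 41.8, 43.5 and 40.1 CPM in control, 54.5, 56.7 and 58.6 at 20 µM and 87.1, 90.2 and 88.4 at 30 µM, with no overlap between any groups. NFKBIA rose by 0.44 ± 0.05 (log2 change ± SE) at 20 µM, 1.36-fold (adjusted p = 6.56e-09), by 1.08 ± 0.05 at 30 µM, 2.12-fold (adjusted p = 8.95e-20), and 1.57-fold between the doses (adjusted p = 7.34e-14).

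NFKBIE (chr6:44258166-44265788, - strand) encodes IκBε, a related inhibitor, and stood at 8.97, 11.9 and 10.4 CPM in control, 13.6, 16.3 and 14.2 at 20 µM and 23.2, 24.1 and 27.2 at 30 µM. It was the least abundant inhibitor and had the widest standard errors of the 3, yet its groups did not overlap. NFKBIE rose by 0.50 ± 0.10 (log2 change ± SE) at 20 µM, 1.41-fold (adjusted p = 0.000144), by 1.26 ± 0.10 at 30 µM, 2.40-fold (adjusted p = 5.53e-13), and 1.70-fold between the doses (adjusted p = 2.04e-08).

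TNFAIP3 (chr6:137867188-137883312, + strand) encodes a ubiquitin-editing enzyme that ends signalling from tumour necrosis factor and Toll-like receptors. Its levels were 67.9, 62.4 and 65.9 CPM in control, 74.2, 78.4 and 71.3 at 20 µM and 109.6, 110.2 and 111.7 at 30 µM. TNFAIP3 changed least at 20 µM among the 7 members that rose there, by 0.19 ± 0.05 (log2 change ± SE) or 1.14-fold (adjusted p = 0.00114). At 30 µM it rose by 0.76 ± 0.04, 1.69-fold (adjusted p = 2.50e-16), and between the doses 1.48-fold (adjusted p = 5.27e-13). WAKMAR2, on the opposite strand, overlaps it, with the same uncertainty about strand as for RELA.

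Both target genes rose at both doses. ICAM1 (chr19:10270835-10286615, + strand) encodes an adhesion molecule that leukocyte integrins bind. It had 65.9, 70.1 and 65.2 CPM in control, 82.1, 87.7 and 89.5 at 20 µM and 320.5, 317.0 and 329.6 at 30 µM. The 30 µM libraries stood far above the rest. ICAM1 rose by 0.37 ± 0.04 (log2 change ± SE) at 20 µM, 1.29-fold (adjusted p = 9.88e-09), by 2.27 ± 0.04 at 30 µM, 4.81-fold (adjusted p = 1.44e-30), and 3.73-fold between the doses (adjusted p = 2.34e-28). The antisense genes LIMASI and ICAM4-AS1 overlap it.

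BIRC3 (chr11:102317450-102339403, + strand) encodes a ubiquitin ligase that acts at the tumour necrosis factor receptor, favours cell survival and, with its relative BIRC2, keeps the kinase NIK low. It was scarce, with 2.58, 3.16 and 2.73 CPM in control, 4.23, 3.88 and 5.27 at 20 µM and 16.1, 15.3 and 13.5 at 30 µM, from 70 to 372 counts a library. Low as they were, its groups did not overlap. BIRC3 rose by 0.67 ± 0.15 (log2 change ± SE) at 20 µM, 1.59-fold (adjusted p = 0.000434; 0.47 and adjusted p = 0.0413 without the 3 libraries that deviated together), by 2.41 ± 0.13 at 30 µM, 5.32-fold (adjusted p = 3.99e-17), and 3.35-fold between the doses (adjusted p = 6.54e-14).

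**Figure D2:**
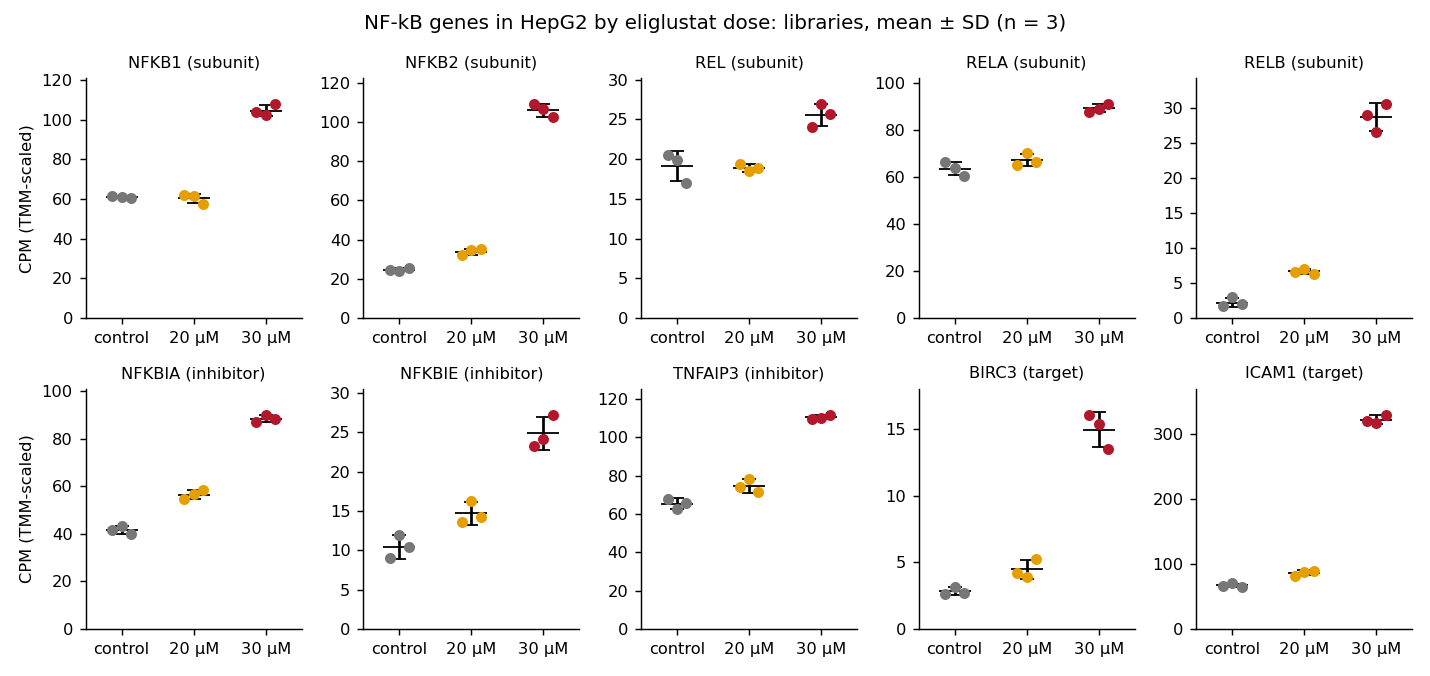
Level of each of the 10 genes in CPM on TMM-scaled library sizes (vertical axis from 0, a scale of its own in each panel) in the control, 20 µM and 30 µM libraries; points are libraries, and bars are the mean ± SD (n = 3). In every panel the 3 libraries at 30 µM lie above all others, and in NFKB1, REL and RELA the 20 µM libraries overlap the control libraries.

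Grouped by role, the median change at 30 µM against control was 0.77 (log2) for the 5 subunits, 1.08 for the 3 inhibitors and 2.34 for the 2 targets. At 20 µM these medians were 0.08, 0.44 and 0.52. Between the doses they were 0.79, 0.65 and 1.82. The groups are small and the subunits were spread the widest, from 0.42 for REL to 3.72 for RELB at 30 µM, so the order of the medians describes these 10 genes only.

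Ratios of 2 genes within a library do not depend on how libraries are scaled, and were used to set genes of the pathway side by side. The log2 ratio of RELB to RELA counts was -5.30, -4.43 and -4.94 in control, -3.30, -3.32 and -3.41 at 20 µM and -1.60, -1.74 and -1.58 at 30 µM. Its mean thus lay 1.55 above control at 20 µM and 3.25 above at 30 µM, with no overlap between groups. For NFKB2 to NFKB1 the mean was -1.30 ± 0.05 (SD, n = 3) in control, -0.83 ± 0.12 at 20 µM and 0.02 ± 0.08 at 30 µM, so the noncanonical precursor came from well under the level of the canonical precursor in counts to about the same. The log2 ratio of NFKBIA to RELA was -0.61 ± 0.06 in control, -0.25 ± 0.06 at 20 µM and -0.01 ± 0.03 at 30 µM, and the inhibitor's counts therefore gained on those of the subunit it holds at each dose. These ratios are a description of counts, not of molecules, since the genes differ in length. They are ratios of RNA. Cutting of the NFKB2 precursor protein and the activity of either branch were not measured.

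**Figure D3:**
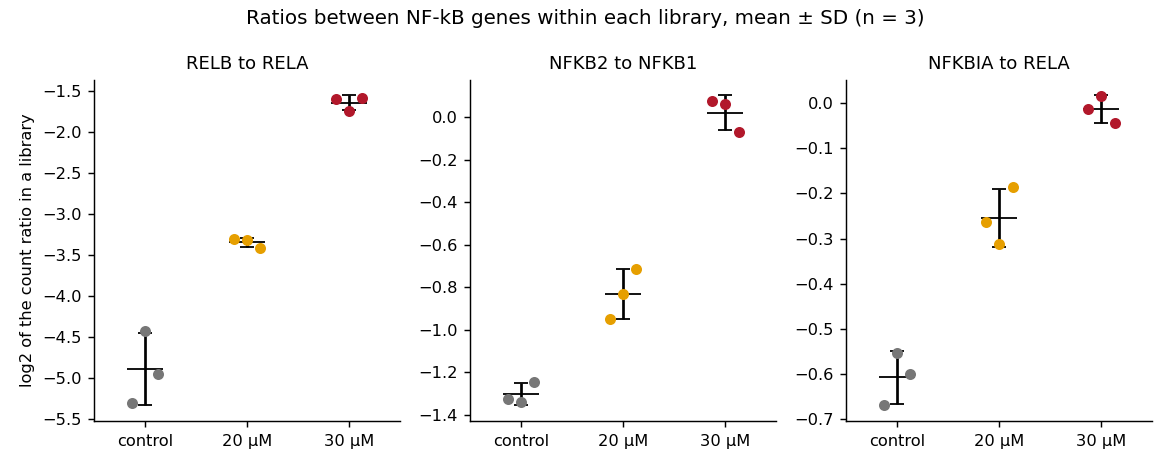
Log2 of the count ratio of 2 genes within each library (vertical axis, a scale of its own in each panel) for RELB to RELA, NFKB2 to NFKB1 and NFKBIA to RELA, by group; points are libraries, and bars are the mean ± SD (n = 3). All 3 ratios step up from control to 20 µM to 30 µM without overlap, the first from -4.89 to -3.34 to -1.64.

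Levels of different genes were compared as CPM per kilobase of exon. All annotated exons of a gene were merged for its length, which was 13170 bases for REL and 3035 for RELB. In control, ICAM1 at 18.1 ± 0.72 (SD, n = 3) and NFKBIA at 17.6 ± 0.73 led and overlapped. They were followed without overlap between neighbours by TNFAIP3 at 12.95, RELA at 11.7, NFKB1 at 9.78, NFKB2 at 5.53, NFKBIE at 4.04, REL at 1.45, RELB at 0.729 and BIRC3 at 0.376 CPM per kilobase. At 20 µM NFKBIA at 23.9 ± 0.86 and ICAM1 at 23.3 ± 1.05 still overlapped, and RELB at 2.20 ± 0.13 had passed REL at 1.44 ± 0.04; the order was otherwise that of control. At 30 µM ICAM1 stood alone at 87.0 ± 1.75 CPM per kilobase, ahead of NFKBIA at 37.3 ± 0.65. NFKB2 at 23.7 ± 0.74 now lay above TNFAIP3 at 21.9 ± 0.21, NFKB1 at 16.7 ± 0.47 and RELA at 16.4 ± 0.31, the last 2 of which overlapped. RELB at 9.46 ± 0.65 overlapped NFKBIE at 9.63 ± 0.81, and BIRC3 at 1.99 ± 0.18 overlapped REL at 1.94 ± 0.11. On this scale the subunit that was the scarcest in control thus came to lie well above REL at 30 µM, while REL became one of the 2 lowest members. In CPM not divided by length, RELB stood at 6.66 and REL at 18.9 at 20 µM, and their libraries overlapped at 30 µM.

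Other genes of the pathway were looked up from lists by role. Among 16 other IκB proteins and brakes of the pathway, 15 could be tested. At 20 µM 8 rose and 1 fell, at 30 µM 10 rose and 2 fell against control, and between the doses 10 rose and 1 fell, with medians of 0.17, 0.45 and 0.34 (log2). ZC3H12A, an RNase that degrades inflammatory messenger RNAs, stood at 9.49 ± 1.18 CPM (SD, n = 3) in control, 12.6 ± 1.46 at 20 µM and 43.8 ± 2.45 at 30 µM, a rise of 2.20 ± 0.09 (log2 change ± SE) at 30 µM (adjusted p = 1.99e-20). CYLD, a deubiquitinase that dampens the pathway, rose already at 20 µM, from 15.3 ± 0.64 to 27.4 ± 1.64 CPM, and stood at 41.0 ± 0.91 at 30 µM. TNIP1, a partner of the TNFAIP3 protein, rose by 0.36 at 20 µM and 1.18 at 30 µM, and TAX1BP1, another such partner, by 0.17 and 1.02. NFKBIZ, a nuclear IκB protein, rose by 0.42 at 20 µM (adjusted p = 1.26e-06), and the deubiquitinase OTUD7B by 0.75 between the doses (adjusted p = 1.58e-14).

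Of 17 genes of the IKK complex and the kinases and adaptors around it, all were tested. At 20 µM 4 rose and 2 fell, which is near the shares of all tested genes, 17.2% risen and 16.9% fallen. At 30 µM 12 rose and 2 fell against control, and 11 rose and 2 fell between the doses. The medians of the 3 comparisons were 0.08, 0.26 and 0.35 (log2). MAP3K14, the kinase NIK that drives the noncanonical branch, was at 12.3 ± 0.72 CPM (SD, n = 3) in control, 13.7 ± 2.57 at 20 µM and 29.7 ± 1.52 at 30 µM. It did not pass the test at 20 µM (0.16, adjusted p = 0.250) and rose by 1.28 ± 0.10 (log2 change ± SE) at 30 µM (adjusted p = 2.85e-11). IKBKG, the regulatory subunit of the IKK complex, did not pass at 20 µM either (adjusted p = 0.392), with 16.6 ± 0.42, 17.6 ± 1.88 and 36.2 ± 0.62 CPM and a rise of 1.13 at 30 µM (adjusted p = 1.80e-15). CHUK, a catalytic subunit of that complex, fell by 0.33 at 20 µM (adjusted p = 4.05e-06) but was 0.11 from control at 30 µM (adjusted p = 0.0690). The other catalytic subunit, IKBKB, named here after its values were seen, passed the test in no comparison, with 25.9 ± 1.24 CPM in control and 27.3 ± 1.80 at 20 µM, and a difference of 0.16 at 30 µM (adjusted p = 0.0678). RIPK2, the kinase of NOD receptor signalling, rose by 0.31 at 20 µM and 1.34 at 30 µM, and TANK, a binding partner of TRAF proteins, by 0.81 at 30 µM. MAP3K3 and TAB3, which act upstream of IKK, rose at 20 µM by 0.45 and 0.32.

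For receptors and adaptors, 26 of 29 genes were tested; 10 rose and 2 fell at 20 µM, 14 rose and 4 fell at 30 µM, and 15 rose and 5 fell between the doses, with medians of 0.12, 0.30 and 0.23 (log2). TNFRSF12A, the receptor for the cytokine TWEAK, which is known to signal through the noncanonical branch, rose the most of them at 30 µM. It went from 18.2 ± 0.89 CPM (SD, n = 3) in control to 30.2 ± 2.15 at 20 µM and 198.4 ± 13.7 at 30 µM, a rise of 3.45 ± 0.06 (log2 change ± SE) or 10.9-fold (adjusted p = 3.90e-28). TNFRSF11A, the receptor for the cytokine RANKL, fell at both doses, from 9.69 ± 0.48 CPM to 5.76 ± 0.80 and 6.02 ± 0.76, by 0.75 and 0.69 (adjusted p = 7.91e-06 and 1.10e-05). TNFRSF1A, the main receptor for tumour necrosis factor, was 0.06 from control at 20 µM (adjusted p = 0.300) and rose by 0.82 between the doses (adjusted p = 1.23e-17). TICAM1 and IRAK2, adaptors of Toll-like and interleukin-1 receptors, rose by 1.34 and 1.20 at 30 µM, and XIAP, a caspase inhibitor and ubiquitin ligase, by 0.92. RBCK1 and SHARPIN, both parts of the linear ubiquitin ligase, rose at 20 µM by 0.39 and 0.30, but SHARPIN fell by 0.19 between the doses (adjusted p = 0.00430) while RBCK1 rose by 0.24. RNF31, another part of that ligase, is named here after its values were seen. Low at 2.36 ± 0.27 CPM in control, it did not pass at 20 µM (adjusted p = 0.993). At 30 µM RNF31 fell by 0.89 (adjusted p = 0.00367).

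Ligands of the pathway were mostly too low to test. Only 4 of the 14 passed the count filter; 3 rose at 20 µM, 3 rose and 1 fell at 30 µM, and 2 rose and 1 fell between the doses. TNFSF14, the cytokine LIGHT, which binds the lymphotoxin beta receptor, rose at each dose, from 1.58, 2.34 and 1.47 CPM in control to 5.59, 6.64 and 6.16 at 20 µM and 12.6, 12.7 and 13.1 at 30 µM. Its rise at 30 µM was 2.85 ± 0.15 (log2 change ± SE) with an adjusted p of 5.98e-18. TNF itself, the prototype activator, had 0, 0 and 0 counts in control, 6, 0 and 2 at 20 µM and 7, 11 and 7 at 30 µM, and was not tested. IL1B, TNFSF11, CD40LG and IL17A were at 0 counts in all 9 libraries, which at this depth does not show that they are absent.

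Among 40 other known target genes, 21 could be tested. At 20 µM 13 rose and 2 fell, at 30 µM 16 rose and 2 fell against control, and between the doses 14 rose and 3 fell, with medians of 0.39, 0.97 and 1.17 (log2). CXCL8, the neutrophil attractant interleukin-8, had 0.538, 0.947 and 0.359 CPM in control, 2.00, 1.59 and 1.67 at 20 µM and 50.2, 49.2 and 49.8 at 30 µM. It rose by 1.56 ± 0.22 (log2 change ± SE) at 20 µM (adjusted p = 8.09e-07) and by 6.38 ± 0.14 at 30 µM (adjusted p = 3.77e-28), beyond every member. CCL20, an attractant of lymphocytes and dendritic cells, rose from 5.15 ± 0.74 CPM (SD, n = 3) to 12.1 ± 1.93 at 20 µM and 108.8 ± 4.55 at 30 µM. IER3, a stress-induced survival gene, rose by 0.15 at 20 µM, with 43.8 ± 2.51 CPM in control and 48.4 ± 0.26 at that dose, and stood at 555.5 ± 2.48 at 30 µM, a rise of 3.67 ± 0.04. LIF, a cytokine of the interleukin-6 family, likewise went from 11.1 ± 0.90 to 14.7 ± 0.94 and 126.6 ± 6.45 CPM. GADD45B, a stress response gene, rose by 1.23 at 20 µM and 2.86 at 30 µM, and the transcription factor IRF1 rose by 0.55 at 20 µM and 0.46 at 30 µM without a further change between the doses (-0.08, adjusted p = 0.510).

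The other 19 target genes had too few counts to test, and 8 of them were at 0 counts in all 9 libraries: CXCL3, CCL2, IL6, VCAM1, SELE, PTGS2, SAA1 and PTX3. Several of these are among the best known NF-κB targets in other cells, where IL6 is a central inflammatory cytokine and VCAM1 and SELE are adhesion molecules of endothelium. BCL2A1, a survival gene of blood cells, had 1, 0 and 0 counts in control, 0, 2 and 4 at 20 µM and 13, 12 and 9 at 30 µM, too few for the filter. The target list therefore holds genes of very different levels in these cells, and its counts of risen genes cover only the 21 that were tested.

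**Figure D4:**
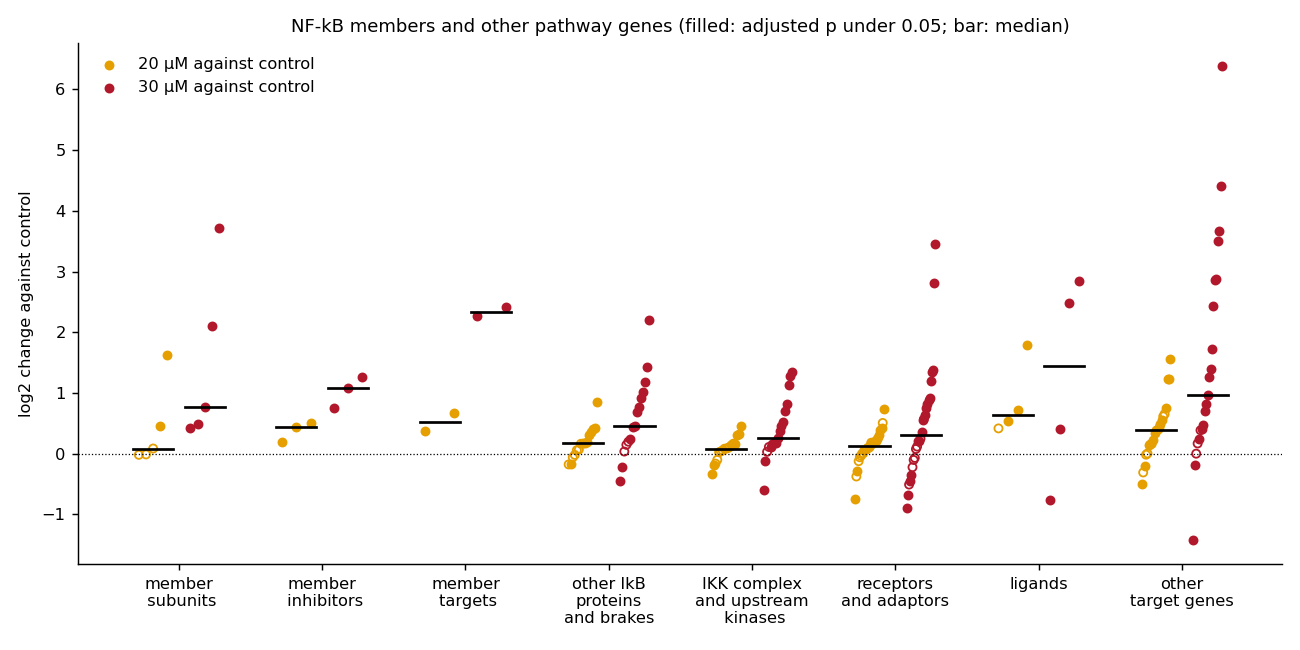
Log2 change against control (vertical axis) of each tested gene of the members by role and of 5 lists of other pathway genes, at 20 µM and 30 µM; filled points have an adjusted p under 0.05, open points do not, and bars are medians. The widest spread is among the other target genes at 30 µM, up to 6.38 for CXCL8, while the median of the IKK complex and upstream kinases is 0.26.

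The genes whose level followed that of RELB most closely over the 9 libraries were found by the distance between centred log2 CPM profiles among 10138 protein-coding genes of at least 5 CPM. They were JUN at a distance of 0.760, GABARAPL1 at 0.815, FOS at 0.852, BHLHE40 at 0.864 and DUSP8 at 0.913, with changes of 1.20 to 1.94 (log2) at 20 µM and 3.34 to 4.16 at 30 µM. For NFKBIA the nearest were MAPK13 at 0.117, FN1 at 0.130, ARHGAP17 at 0.134, CHPF2 at 0.134 and ACVR1 at 0.161, with changes of 0.36 to 0.41 at 20 µM and 1.02 to 1.06 at 30 µM. None of these 10 is a gene of the pathway lists. The 9 libraries form 3 groups, so this likeness mostly measures how alike the group means were, and it is a description.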

How the data were processed

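RNA-seq was made from HepG2 cells with a stranded total RNA kit after ribosomal RNA depletion, per the labels' protocols, while the labels' molecule field says polyA RNA. The deposited values are raw read counts per gene, 1 file per library, and the submitters' processing notes name FastQC, STAR 2.7.10a, HTSeq and the build hg38. Which annotation release and strand setting were used is not given in the sources used here. Reads of overlapping antisense genes may thus be mixed. Records assigned to no single gene were left out of library sizes.

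Counts of all 9 libraries entered 1 edgeR 4.0.16 fit (R 4.3.3): TMM scaling, the default filter on low counts (17623 genes kept), a robust quasi-likelihood test with 1 mean per group, Benjamini-Hochberg adjustment over all genes tested and a threshold of 0.05. Standard errors were taken as |log2 change| / √F. Alternatives used DESeq2 1.42.0, limma voom 3.58.1, other scalings and filters, and libraries left out. Symbols were matched to the gene identifiers from a separate list of gene names. Coordinates and exon lengths are from GENCODE 29, and promoter sequences are from RefSeq.

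The members and lists were chosen with earlier results of these data known. From each list, up to 4 genes per comparison were named: those past the test with no overlap between the groups' libraries and at least 5 CPM on average, by size of log2 change. The nearest profiles were the 5 with the smallest Euclidean distance. In all 9 pairs of libraries of the same group the counts differed by more than sampling noise, with a chi-square per gene from 2.10 to 7.94. A dose of 10 µM was not analysed here.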

Additional observations from a re-analysis of the deposited data

Results flagged for a closer look

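In 5 genes of the pathway lists, the libraries at 20 µM and at 30 µM differed from control in opposite directions, each past the test in the fit reported here. These genes were picked out for that pattern after their values were seen. The difference itself was tested as 30 µM against 20 µM (edgeR's quasi-likelihood test). BCL2L1, which encodes a survival protein of the BCL2 family, fell by 0.20 (log2) at 20 µM and rose by 0.97 at 30 µM, from 297.0 ± 5.62 CPM (SD, n = 3) in control to 257.9 ± 8.54 and 581.4 ± 8.86, a difference of 1.17 between the doses (adjusted p = 7.16e-25). TNFSF10, the death ligand TRAIL, went the other way, with 3.09 ± 0.37 CPM in control, 5.11 ± 0.55 at 20 µM and 1.82 ± 0.40 at 30 µM, a difference of -1.48 between the doses (adjusted p = 2.35e-08). IL1R1, the receptor for interleukin-1, differed by -0.46 between the doses (adjusted p = 4.49e-12), with 129.8 ± 2.19, 140.4 ± 2.38 and 101.8 ± 4.58 CPM. PLAU, the urokinase gene, differed by 1.19 (adjusted p = 6.93e-07) at low levels of 3.20 ± 0.62, 2.26 ± 0.10 and 5.17 ± 0.65 CPM. TBK1, a kinase related to the IKK complex, differed by 0.37 (adjusted p = 2.13e-07), with 54.8 ± 1.60, 47.8 ± 3.41 and 61.8 ± 1.64 CPM. The pattern held less firmly in 3 of the 5: over 19 alternatives the 20 µM call was lost in 9 for PLAU and in 5 for IL1R1, and TBK1 at 30 µM lost its call with upper-quartile scaling and turned to -0.035 with library size alone. No member showed opposite directions past the test at both doses. The cell type markers were not searched for this pattern. Among them HNF4A changed by 0.17 at 20 µM and -0.23 at 30 µM, and CDH5 by 0.68 and -0.55, each past the test.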

How the results depend on the processing

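Over 19 alternatives (9 of method, 9 that leave out 1 library and 1 that leaves out the 3 libraries that deviated together), the counts of members that rose stayed at 7, 10 and 10, and all 570 values of the members kept their side of the threshold. In 6 of them the sign changed, all at 20 µM in NFKB1 (0.0071 and 0.015) and REL (0.0026 to 0.040), which had not passed the test. Same-numbered libraries deviated together in some pairs and apart in others (correlations from -0.202 to 0.352), so the numbers were not taken to pair the samples, and the replicate block, with 7, 10 and 10 members that rose, is given as a check alone. Of the members' calls, that of BIRC3 at 20 µM came closest to the threshold, with a log2 change from 0.47 to 0.75, the lowest (adjusted p = 0.0413) without the 3 libraries. Scaling by library size alone moved the median of all genes by -0.21 at 30 µM against control and -0.19 between the doses, and the members still rose. The size of the smallest rises depended on the alternative. At 30 µM against control REL, at 0.42 in the main fit, went down to 0.21, and RELA, at 0.49, to 0.28. Between the doses their lowest values were 0.24 and 0.21. Of the listed genes, only those named for their large changes and the 5 flagged above were compared over the alternatives. The calls of the other listed genes, which also enter the counts of risen and fallen genes, were not compared. Of 1254 values of the compared genes, 16 were not kept, in IL1R1, PLAU and TBK1. IL1R1 at 20 µM lost its call in 5 alternatives and PLAU at 20 µM in 9. TBK1 at 30 µM lost it with upper-quartile scaling (0.11) and turned to -0.035 (adjusted p = 0.582) with library size alone. The cause was not tested. Genes under the count filter, such as TNF and IL6, are limited by depth.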
